A study of Homo sapiens with 2 samples.

Results

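The genes described here are 54 DNA repair and Fanconi anaemia genes, taken by name from a table of 50868 genes. All 54 were found in the table, and they were placed in 7 pathways by their textbook roles. The libraries came from Molm13, a human acute myeloid leukemia line with a KMT2A::MLLT3 fusion. There was 1 Vector library, from cells given the control lentivirus, and 1 library labelled OE-UNC5B, from cells given a lentivirus that carries UNC5B under the CMV promoter with a FLAG tag, mCherry and puromycin resistance. According to the methods, infected cells were selected with puromycin, and nothing in the sources describes a single clone or separate cultures. Each group therefore has 1 library, no difference has a replicate check, and no test of the conditions could be made.

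DNA repair is divided among pathways that each handle one kind of lesion. Homologous recombination and end joining mend broken chromosomes, the Fanconi anaemia proteins unhook crosslinks between the strands, and mismatch, base excision and nucleotide excision repair replace wrong, damaged or bulky bases. Many repair genes are used most when the genome is copied, and many drugs given against leukemia damage DNA.

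The Vector library held 13715566 counted reads and the library labelled OE-UNC5B held 15637137. UNC5B itself had 0 reads in both, where the floor of 3 reads is 0.219 CPM (reads scaled to library size) for Vector and 0.192 CPM for the other library, so every direction below rests on the labels. All 10 markers of myeloid and leukemic cells had reads in both libraries, between 247 and 51742 in Vector and between 443 and 23700 in the other library. Marker lists of the HEK293 packaging line, endothelial cells, fibroblasts and lymphoid cells, of 4 genes each, summed to at most 23 reads. In bulk RNA, fewer cells that express a gene and less RNA of it per cell cannot be told apart.

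Changes are log2 fold changes of the library labelled OE-UNC5B over Vector, after TMM scaling, with 0.5 reads added to each count. The bracketed range is the 95% Clopper-Pearson interval from the reads, which covers counting error only. A gene is counted as higher or lower when its change is at least 1.5-fold and this interval leaves out 0, and the 15384 genes whose reads in both libraries summed to at least 10 were examined. Levels are CPM divided by the length of the gene's canonical transcript in kb, abbreviated RPKM.

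All 54 repair genes had enough reads to be examined, with between 110 and 40085 reads in a library. Against Vector, the library labelled OE-UNC5B held more XPA, BRCA2 and ATM and less UNG and MSH6 by this rule. Of these 5 calls, those of XPA and UNG held under every setting tried for these calls. Those of BRCA2 and ATM ended when a trend on GC content and transcript length was subtracted, and those of ATM and MSH6 ended on the deposited FPKM with 1 added, where MSH6 was 1.48-fold lower and ATM just under 1.5-fold higher. FBXO11, a gene on the opposite strand, shares 22.7% of the exonic bases of MSH6. The reads of both together were under 1.5-fold, at -0.19 [-0.28 to -0.09]. That sum takes in all reads of FBXO11, which went the other way, so it had to dilute the fall and cannot decide the call of MSH6. Higher were 5.56% of the 54 genes, where 9.12% of all examined genes were higher. Lower were 3.70%, where 8.76% of all examined genes were lower. Among genes with at least as many reads as the least counted repair gene, the shares were 7.95% higher and 7.27% lower. At 2-fold, 0 repair genes were higher and 1, UNG, was lower, against 3.8% and 3.71% of all examined genes.

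The changes of these 54 genes lay close together. Their median was -0.04, the interquartile range was 0.32 log2 units, and the whole range ran from -1.37 to 0.94. Over all examined genes the median was -0.01 and the interquartile range was 0.64. Part of that width comes with few reads, so the 9271 genes with 319 reads or more in all, the total of the least counted repair gene, were taken as well, and their interquartile range was 0.52. Within 1.25-fold of no change were 43 of the 54 repair genes, or 79.6%, against 59.3% of those 9271 genes and 50.1% of all examined genes. A list of 111 further repair genes did not share this narrow spread, with an interquartile range of 0.51 and 62.2% within 1.25-fold. That list was not held to 319 reads and goes down to 8 reads in a library, so part of its width can come with few reads.

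**Figure D1:**
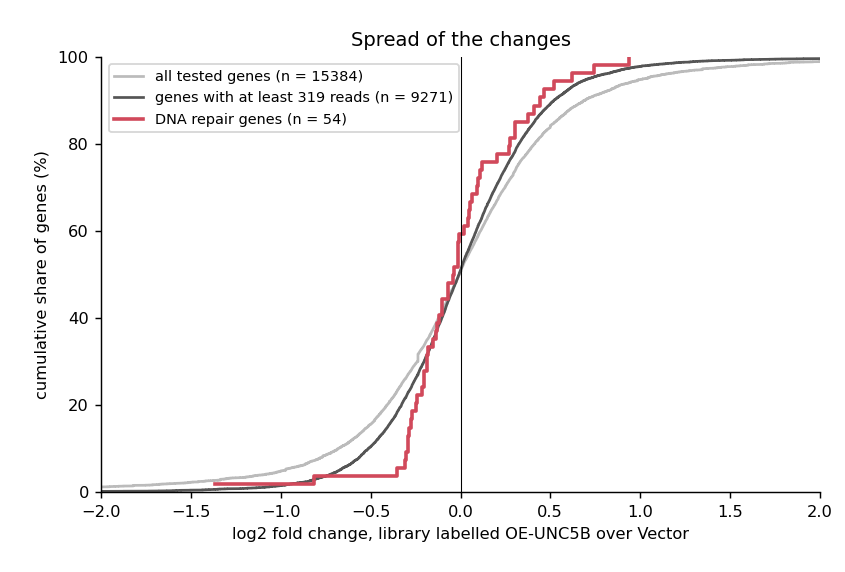
The cumulative share of genes (vertical axis, percent) is plotted against the log2 fold change of the library labelled OE-UNC5B over Vector (horizontal axis), for the 54 repair genes, for the 9271 genes of 319 reads or more and for all 15384 examined genes. The curve of the repair genes is the steepest around 0, with UNG at -1.37 and XPA at 0.94 at its ends.

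Read intervals gave more calls than the fold did. For 20 repair genes, or 37.0%, the interval lay below 0, for 11, or 20.4%, it lay above 0, and for 23 it spanned 0. Over the 9271 genes of at least that many reads these shares were 34.8% below and 33.1% above 0, and over all examined genes 26.3% and 25.1%. The share below 0 was thus near the background, and the share above 0 was under it. Interval counts were made with TMM scaling alone, and intervals that end near 0 can change sides under another scaling.

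UNG, the uracil-DNA glycosylase that opens base excision repair of uracil, had the largest fall of the 54. Its reads numbered 1085 in Vector against 495 in the library labelled OE-UNC5B, and its level went from 39.3 to 15.2 RPKM. The log2 fold change was -1.37 [-1.53 to -1.21], 2.58-fold lower, and 2.65% of all examined genes lay at or below it. MSH6, which recognises base mismatches, had 1042 and 698 reads in the same order. Its change was -0.81 [-0.96 to -0.68], 1.76-fold lower, from 18.1 to 10.3 RPKM.

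XPA, the damage-verifying scaffold of nucleotide excision repair, had 110 reads in Vector against 249 in the other library, and 110 was the lowest count of the 54 genes. Its change was 0.94 [0.61 to 1.28], 1.92-fold higher, and its level went from 5.82 to 11.2 RPKM. BRCA2, a mediator of strand exchange at broken ends, had 763 and 1507 reads, Vector being given first here and in all pairs of values that follow. Its change was 0.74 [0.62 to 0.87], 1.68-fold higher, from 4.73 to 7.93 RPKM. ATM, the kinase that signals chromosome breaks, had 2351 and 4259 reads. Its change was 0.62 [0.55 to 0.69], 1.54-fold higher, from 13.5 to 20.7 RPKM. ATM was the gene nearest to the threshold on the inside, and RAD50, at 0.52 or 1.44-fold, was the nearest on the outside.

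On GRCh38, UNG lies on chromosome 12 from 109097574 to 109110992, MSH6 on chromosome 2 from 47695530 to 47810101, BRCA2 on chromosome 13 from 32315474 to 32400266 and ATM on chromosome 11 from 108222484 to 108369102, all on the plus strand, and XPA on chromosome 9 from 97674909 to 97697357 on the minus strand. These are whole gene bodies, and reads over their exons were counted. Promoter sequences were taken from RefSeq on GRCh38.p14, where 49 of the 54 genes matched a window of 250 bases before to 50 bases after the start site. FANCI, NBN, PRKDC, WRN and XRCC5 did not match. The letters searched on both strands were TTTCCCGC, TTTGGCGC, TTTGCCGC and TTTCGCGC, which E2F factors of the cell cycle can bind, TTTGAA, the core of the element called CHR, and CCAAT, the CCAAT box, and the motifs may overlap. The promoters of UNG, MSH6 and ATM are shown from 250 bases before to 20 bases after the start because these genes passed the fold and hold such letters, with each match in capitals. UNG has a start for each of its protein forms, nuclear and mitochondrial, and both are given.
UNG, start nearest the canonical transcript (chr12:109097347-109097616, plus strand): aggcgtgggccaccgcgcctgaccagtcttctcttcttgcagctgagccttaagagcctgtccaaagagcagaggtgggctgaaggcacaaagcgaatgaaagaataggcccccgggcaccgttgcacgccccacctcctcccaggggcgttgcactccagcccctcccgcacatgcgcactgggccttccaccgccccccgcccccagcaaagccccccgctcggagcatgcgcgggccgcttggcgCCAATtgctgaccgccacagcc
UNG, start 575 bases downstream (chr12:109097922-109098191, plus strand): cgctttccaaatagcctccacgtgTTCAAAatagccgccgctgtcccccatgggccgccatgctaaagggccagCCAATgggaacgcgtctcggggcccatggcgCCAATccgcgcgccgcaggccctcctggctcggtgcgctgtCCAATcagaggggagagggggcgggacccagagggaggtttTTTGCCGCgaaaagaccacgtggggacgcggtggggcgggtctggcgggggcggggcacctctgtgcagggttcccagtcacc
MSH6 (chr2:47782895-47783164, plus strand): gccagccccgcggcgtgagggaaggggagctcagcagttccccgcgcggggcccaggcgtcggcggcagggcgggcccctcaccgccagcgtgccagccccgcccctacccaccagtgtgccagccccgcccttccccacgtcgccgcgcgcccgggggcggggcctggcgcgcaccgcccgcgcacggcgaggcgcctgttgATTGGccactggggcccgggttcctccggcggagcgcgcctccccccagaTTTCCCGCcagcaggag
ATM (chr11:108222817-108223086, plus strand): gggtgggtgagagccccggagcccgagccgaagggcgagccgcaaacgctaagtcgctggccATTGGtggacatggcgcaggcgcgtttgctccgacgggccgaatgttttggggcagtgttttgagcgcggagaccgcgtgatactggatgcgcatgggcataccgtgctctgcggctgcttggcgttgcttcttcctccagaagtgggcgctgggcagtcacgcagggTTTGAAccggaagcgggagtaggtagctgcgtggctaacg

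The first UNG window held a CCAAT box across the start and none of the other letters. The downstream UNG window held TTTGCCGC, 3 CCAAT boxes and TTTGAA read on the minus strand. In MSH6 the letters TTTCCCGC began at position 4 of the transcript and a CCAAT box lay on the minus strand. The ATM window shown, the nearest to the canonical start, held a CCAAT box on the minus strand and TTTGAA. A further ATM start window, not shown, held CCAAT boxes on the plus strand. The windows of BRCA2 and XPA held none of the letters searched.

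For counts over genes, only the window nearest the canonical start was used, so the match in the downstream UNG window is not among them. E2F letters stood in 9 of the 49 matched promoters, or 18.4%, against 4.15% of 19094 promoters and 5.58% of the 10003 promoters of examined genes. All 3 mismatch repair genes, MSH3, MSH6 and PMS2, held them, although MSH6 was lower while MSH3 was at -0.02 and PMS2 at 0.31. Of the 18 matched genes whose read interval lay below 0, 6 held E2F letters, namely EXO1, FANCA, FANCC, MSH6, XRCC2 and XRCC6, and of the 8 whose interval lay above 0, 1 did, PMS2. CCAAT boxes stood in 51% of the 49 promoters, against 36.2% of all promoters and 37.2% of those of examined genes, and TTTGAA in 12.2%, against 12.8% and 9.29%. These are descriptions of letters in a window, and binding was not measured.

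**Figure D2:**
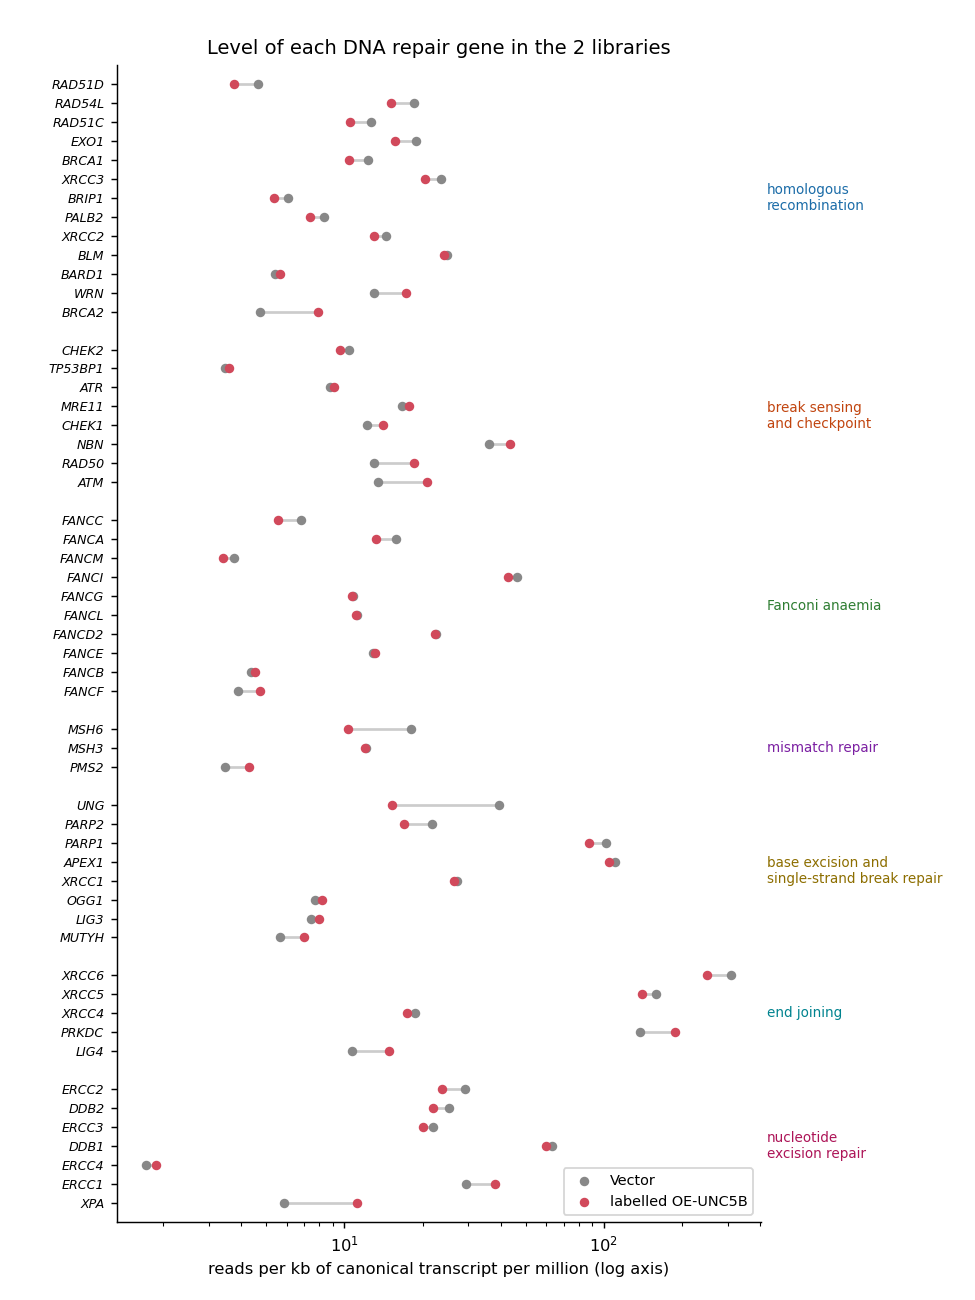
Each of the 54 repair genes is drawn with its level in RPKM (log axis), once for Vector and once for the library labelled OE-UNC5B, grouped by pathway and joined by a line. Levels run from 1.72 RPKM for ERCC4 to 310 RPKM for XRCC6 in Vector, and the longest line is that of UNG.

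Levels differed far more between genes than between libraries. Their order depends on the gene length used, and RPKM on canonical transcripts is given here. XRCC6, which encodes Ku70, had the highest RPKM in both libraries, 310 RPKM in Vector against 250 RPKM in the other library. XRCC5, which encodes Ku80, stood at 160 and 140 RPKM, and PRKDC, the catalytic kinase that Ku recruits to broken ends, at 138 and 187 RPKM. In the deposited FPKM, PRKDC was above XRCC5 in both libraries, and in the library labelled OE-UNC5B it was also above XRCC6, at 136 against 106. APEX1, the nuclease that cuts at sites without a base, followed with 110 and 105 RPKM, and PARP1, which marks nicked DNA with ADP-ribose, with 102 and 87.9 RPKM. At the other end, ERCC4, the XPF nuclease subunit, had the lowest RPKM in both libraries, 1.72 and 1.87, while in the deposited FPKM MUTYH and OGG1 were lower.

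Homologous recombination, with 13 genes, had the lowest median of the 7 pathways, -0.19, with 1 gene higher, BRCA2, and 0 lower. Below 0 were 10 of the 13 changes, and 8 of the 13 intervals, or 61.5%, lay below 0, where the background was 34.8%. Among them were BRCA1, which directs breaks to recombination, with 1178 and 1174 reads and a change of -0.24 [-0.36 to -0.12], and RAD54L, a DNA motor that acts in strand exchange, with 770 and 741 reads and a change of -0.29 [-0.44 to -0.15]. RAD51D had the lowest value, with 623 and 594 reads and -0.31 [-0.47 to -0.14]. The related mediators stood at -0.27 for RAD51C, -0.21 for XRCC3, which becomes 0.04 [-0.05 to 0.13] when its reads are added to those of the antisense gene KLC1, and -0.15 for XRCC2, and the resection nuclease EXO1 at -0.27. The helicase BRIP1 was at -0.19, and its interval also lay below 0. These 8 are near-even raw counts in libraries of unequal depth, and none was past 1.5-fold. The 23 further homologous recombination genes examined, taken from a list of other genes of the same pathways, did not share the low values, with a median of 0.01, 12 of 23 changes above 0, 26.1% of intervals below 0 and 30.4% above.

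BRCA2 and WRN went against this run of values. WRN, the helicase lost in Werner syndrome, had 1327 and 2074 reads and a change of 0.41 [0.31 to 0.51]. PALB2, the bridge between BRCA1 and BRCA2, was at -0.18, BLM, the helicase lost in Bloom syndrome, at -0.04 and BARD1, the partner of BRCA1, at 0.07, and these 3 intervals spanned 0.

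The 8 break sensing and checkpoint genes had the highest median, 0.15, with 1 gene higher, ATM, and 0 lower, and 7 of the 8 changes were above 0. Intervals lay above 0 for 4 of the 8, where the background was 33.1%. RAD50, the coiled-coil subunit of the MRE11 complex that tethers broken ends, had 1444 and 2445 reads and a change of 0.52 [0.43 to 0.62]. NBN, its regulatory subunit, had 2255 and 3201 reads and 0.27 [0.19 to 0.35], and the checkpoint kinase CHEK1 had 679 and 921 reads and 0.20 [0.06 to 0.35]. The intervals of MRE11, the nuclease of the complex, at 0.10, of the replication stress kinase ATR at 0.05 and of TP53BP1, which steers breaks to end joining, at 0.04 spanned 0. CHEK2, the kinase downstream of ATM, was the lowest with 259 and 281 reads and a change of -0.12 [-0.37 to 0.13]. With the GC and length trend subtracted, the median of the 8 genes was -0.00058, 4 of the 8 lay above 0 and the call of ATM ended. The 23 further genes of this pathway had a median of -0.03, near the -0.01 of all examined genes, 14 of 23 changes below 0, 39.1% of intervals below 0 and 17.4% above.

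The Fanconi anaemia group here holds the 10 genes with FANC symbols. Genes linked to that disease under other names, such as BRCA2, were placed in other pathways. None of the 10 was higher or lower, and all 10 lay within 1.25-fold of no change, with a median of -0.01. The matched share over the 9271 genes was 59.3%. The 14 further genes of this pathway, some with few reads, did not share this. Of these 14, 64.3% lay within 1.25-fold, and 42.9% of intervals lay below 0 and 35.7% above. FANCD2 and FANCI, the pair that is ubiquitinated at a crosslink, were at -0.01 with 1545 and 1812 reads and at -0.10 with 2944 and 3228 reads. Of the core complex that ubiquitinates them, FANCC was the lowest, with 421 and 406 reads and a change of -0.29 [-0.49 to -0.09], and FANCF the highest, with 173 and 247 reads and 0.28 [-0.01 to 0.57]. FANCA was at -0.25 [-0.37 to -0.13]. FANCB, FANCE, FANCG and FANCL, the last being the ubiquitin ligase, lay between -0.01 and 0.05, and FANCM, the translocase that anchors the complex to DNA, was at -0.14. For FANCB, FANCF and FANCL, each under 300 reads in a library, changes smaller than the intervals were not detectable at this depth.

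**Figure D3:**
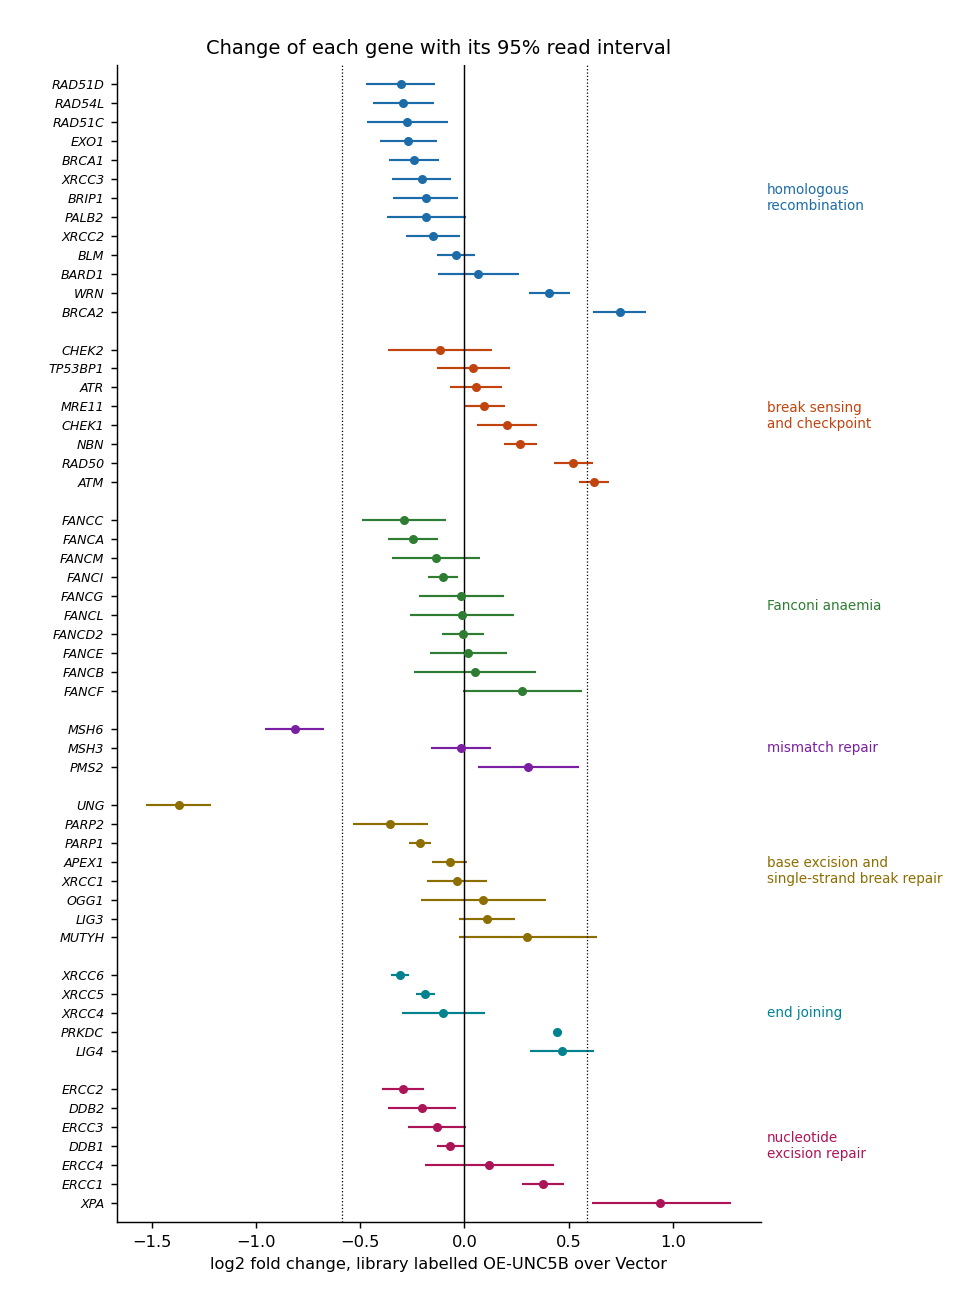
Points are the log2 fold changes of the 54 repair genes (library labelled OE-UNC5B over Vector), ordered within each of 7 pathways, horizontal bars are the 95% intervals from the reads, and dotted lines mark 1.5-fold. UNG and MSH6 lie beyond the 1.5-fold line on the lower side and XPA, BRCA2 and ATM beyond it on the higher side. All 10 genes placed in the Fanconi anaemia group lie between -0.29 and 0.28.

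Mismatch repair was held here by 3 genes with unlike values. Besides MSH6, MSH3, which recognises small loops of unpaired bases, had 727 and 847 reads and a change of -0.02 [-0.16 to 0.13]. PMS2, a nuclease subunit that nicks the strand to be replaced, had 238 and 347 reads and a change of 0.31 [0.06 to 0.55]. The value of PMS2 is uncertain because reads can be split between it and its near-identical copies, which held 449 reads in Vector against 521 in the other library. PMS2 and its copy PMS2CL together had 430 and 555 reads, a change of 0.13 [-0.05 to 0.32].

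Base excision and single-strand break repair held UNG, the largest fall, and 7 genes within 1.5-fold, with a median of -0.05. The glycosylases did not move alike: OGG1, which removes oxidised guanine, was at 0.09 [-0.21 to 0.39] with 169 and 212 reads, and MUTYH, which removes adenine opposite it, at 0.30 [-0.03 to 0.64] with 130 and 189 reads. Both PARP genes had intervals below 0, with PARP2 at -0.36 [-0.53 to -0.18] from 534 and 492 reads and PARP1 at -0.21 [-0.27 to -0.16] from 5475 and 5562 reads. Intervals spanned 0 for APEX1 at -0.07, the scaffold XRCC1 at -0.03 and its ligase LIG3 at 0.11.

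Of the 5 end joining genes, 0 passed the fold, and the median was -0.10. The Ku subunits had intervals below 0, XRCC6 with 8874 and 8433 reads at -0.31 [-0.35 to -0.27] and XRCC5 with 7275 and 7526 reads at -0.19 [-0.23 to -0.14]. PRKDC had 24988 and 40085 reads and a change of 0.44 [0.42 to 0.47]. LIG4, the ligase that seals the break, had 576 and 938 reads and 0.47 [0.32 to 0.62], while its partner XRCC4 was at -0.10 [-0.30 to 0.10] with 405 and 445 reads. PRKDC alone held 27.1% of the reads of the 54 genes in Vector against 34.4% in the other library. The summed CPM of the 54 genes went from 6845 to 7334, a ratio of 1.07, and without PRKDC the ratio was 0.964, so the sum follows that 1 gene.

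Nucleotide excision repair had a median of -0.07 over 7 genes, with XPA higher and 0 lower. ERCC1, the partner of the XPF nuclease, had 1339 and 2047 reads and a change of 0.38 [0.28 to 0.48], which becomes 0.11 [0.02 to 0.19] when its reads are added to those of the antisense gene CD3EAP, and ERCC4 was at 0.12 [-0.19 to 0.43] with 157 and 201 reads. The helicases of TFIIH that open the DNA were at -0.29 [-0.40 to -0.19] for ERCC2, the lowest of the pathway with 1609 and 1546 reads, and at -0.13 [-0.27 to 0.01] for ERCC3. The ultraviolet damage sensor DDB2 was at -0.20 with 619 and 633 reads, and its partner DDB1 at -0.07 with 3606 and 4052 reads.

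Proteins that work as a pair were then set side by side. Of 17 such pairs, 14 differed by less than 0.5 log2 units in their changes. The widest difference was between BRCA2 and PALB2, 0.93 with a counting SE of 0.115, and the RPKM ratio of BRCA2 to PALB2 went from 0.567 in Vector to 1.08. ATM exceeded CHEK2 by 0.74 with a counting SE of 0.130, with 13.5 and 10.4 RPKM in Vector against 20.7 and 9.58 RPKM in the other library. XRCC4 lay below LIG4 by a difference of -0.57 with a counting SE of 0.125, and their RPKM ratio went from 1.75 to 1.18. With the GC and length trend subtracted, these differences were 0.67 for BRCA2 and PALB2, 0.38 for ATM and CHEK2 and -0.47 for XRCC4 and LIG4, so the last 2 fell under 0.5, and that of ERCC1 and ERCC4 passed it at 0.51, although the change of ERCC1 together with CD3EAP, 0.11, is no higher than the 0.12 of ERCC4. The smallest differences were 0.06 between FANCB and FANCL, with RPKM ratios of 0.390 and 0.407, and -0.07 between RAD51C and XRCC3, with 0.538 and 0.514. With the trend subtracted, that of RAD51C and XRCC3 was -0.25. The smallest were then -0.014 between Ku70 and Ku80, -0.023 between FANCB and FANCL and 0.024 between DDB1 and DDB2. FANCD2 to FANCI had ratios of 0.487 and 0.521, and Ku70 to Ku80 had 1.94 and 1.78. MRE11 to RAD50 went from 1.29 to 0.956.

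The base composition of a transcript moved with its change. Across the 54 genes, the change had a Pearson correlation of -0.25 and a Spearman correlation of -0.33 with the GC content of the canonical transcript, and across 15198 genes these were -0.13 and -0.18. With transcript length (log2) they were 0.26 and 0.25 across the 54 genes and 0.13 and 0.20 across the 15198. Genes are not independent replicates, and all points share the same 2 libraries. With examined genes ranked by GC content and cut into 5 groups of equal size, the median change went from 0.13 in the lowest group to -0.14 in the highest.

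**Figure D4:**
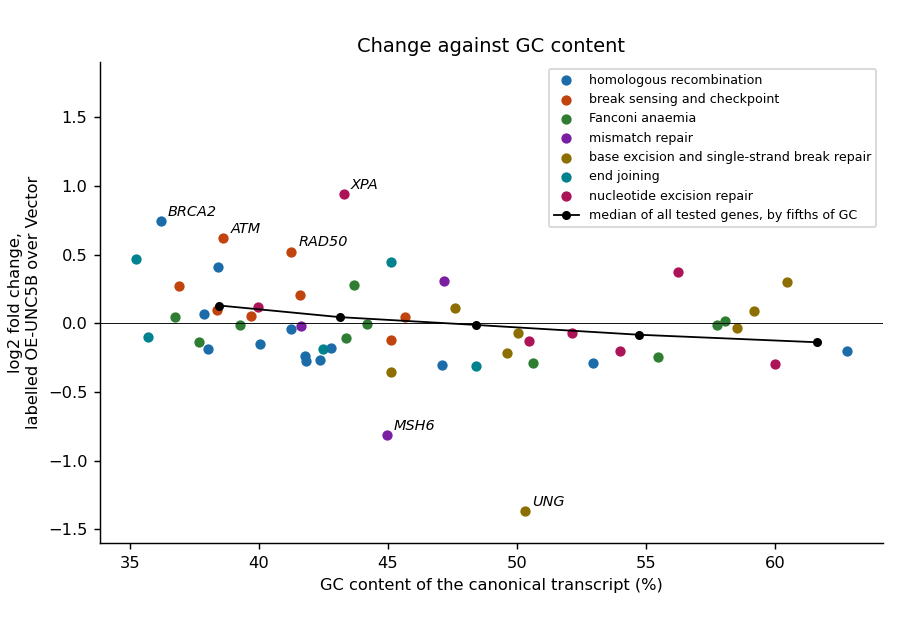
The log2 fold change of each of the 54 repair genes (vertical axis, library labelled OE-UNC5B over Vector) is plotted against the GC content of its canonical transcript in percent, with colours for pathways and a black line for the medians of all examined genes in 5 equal groups of GC content. The line falls from 0.13 to -0.14, BRCA2, ATM and RAD50 lie on the low GC side above it, and UNG and MSH6 lie below it.

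BRCA2 and ATM have long transcripts of low GC content, 11954 nt with 36.2% GC and 12915 nt with 38.6% GC. RAD50 with 8272 nt and PRKDC with 13459 nt are also long. After a trend on GC content and length over all examined genes was subtracted, a setting chosen after the values were seen, BRCA2 stood at 0.40, ATM at 0.29, RAD50 at 0.30 and PRKDC at 0.17, and none of these was past 1.5-fold. XPA, with 1400 nt and 43.3% GC, stayed at 0.96, UNG at -1.31 and MSH6 at -0.89. The median of break sensing genes became -0.00058 and that of homologous recombination -0.27. The trend accounts for 3.13% of the variance of the changes over the 15198 genes, and the part that composition has in these results was not tested.

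Cell cycle genes are given beside the repair genes because several repair genes are transcribed for DNA synthesis. A list of 43 S phase genes had a median change of -0.23 with 0 higher and 8 lower, and a list of 54 G2/M genes had a median of -0.28 with 1 higher and 8 lower. The lower genes are 18.6% and 14.8% of these lists, against 8.76% of all examined genes. The S phase list holds 4 of the repair genes, BLM, BRIP1, EXO1 and UNG, whose changes were all below 0 with a median of -0.23, and without them its other 39 genes also had a median of -0.23, with 0 higher and 7 lower. The other 50 repair genes had a median of -0.02, with 3 higher, or 6%, against 9.12%, and 1 lower, or 2%, against 8.76%. The part of the cell cycle in the repair gene values was not tested.

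A further 112 genes of the same 7 pathways were listed, and 111 had enough reads. Higher were 4 of them, or 3.60%, and lower were 7, or 6.31%, under the 9.12% and 8.76% of all examined genes, with a median of -0.03. RAD54B, a relative of RAD54L, was at -0.59 [-0.75 to -0.43] and the ubiquitin ligase RNF8 at -0.64 [-0.86 to -0.44]. PCNA, the sliding clamp of replication and mismatch repair, had 8057 and 5458 reads and was at -0.80 [-0.85 to -0.75]. FEN1, the flap nuclease, had 2718 and 1556 reads and was at -1.04 [-1.13 to -0.95]. PCNA and FEN1 are among 10 of these genes that the S phase list holds, whose median was -0.47, while the other 101 had a median of -0.00, with 4 higher and 4 lower.

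NEIL2, a glycosylase of oxidised bases, had 222 and 125 reads and was at -1.06 [-1.39 to -0.74]. ERCC5, the XPG nuclease, had 2128 and 1099 reads and was at -1.19 [-1.30 to -1.08], but a readthrough gene that contains it, BIVM-ERCC5, went from 0 reads to 1617. Reads of ERCC5 and BIVM-ERCC5 together were 2128 and 2716, a change of 0.11 [0.03 to 0.20], so the low value of ERCC5 depends on how reads were assigned. The higher genes were RMI2, of the BLM complex, with 170 and 314 reads at 0.65 [0.37 to 0.93], the clamp loader RAD17, with 659 and 1201 reads at 0.63 [0.49 to 0.77], NEIL1, with 8 and 27 reads at 1.46 [0.34 to 2.87], and APLF, an end joining factor that reads ADP-ribose, with 11 and 37 reads at 1.47 [0.51 to 2.63]. The last 2 rest on few reads.

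**Figure D5:**
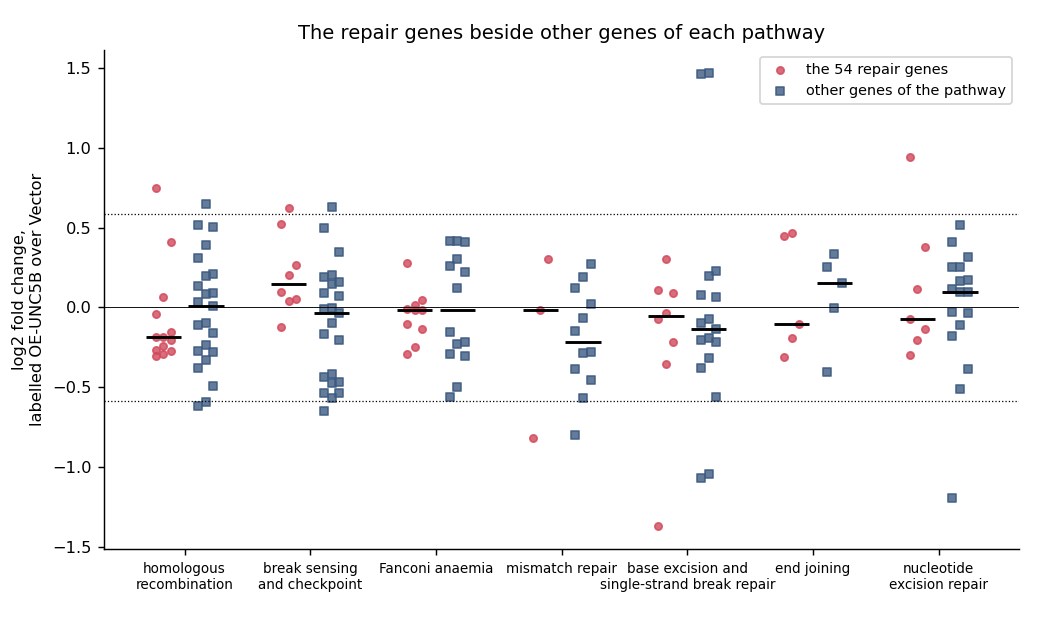
The log2 fold changes (library labelled OE-UNC5B over Vector) of the 54 repair genes and of the 111 further repair genes are plotted by pathway, with short bars for medians and dotted lines at 1.5-fold. Most points lie between the lines, and among the further genes ERCC5, NEIL2 and FEN1 are the lowest and APLF and NEIL1, both with few reads, the highest.

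Overlapping genes limit some values, because it is not stated whether strand was used in counting. At least 10% of the exonic bases of 11 repair genes lie opposite the exons of another gene. For MSH6 the share with FBXO11 is 22.7%. FBXO11 had 719 reads in Vector against 1125 in the other library, so its reads went the other way from those of MSH6, and both together had a change of -0.19 [-0.28 to -0.09]. For ERCC1 the share with CD3EAP is 28.6%, and CD3EAP had 642 and 465 reads, also the other way. XRCC3 shares 76.7% of its exonic bases with KLC1, which had 883 and 1226 reads. The same limit holds for other repair genes whose sums were not taken. These are RAD54L with LRRC41 (322 and 432 reads), FANCA with ZNF276 (611 and 773) and TP53BP1 with TUBGCP4 (1196 and 1209). They are also OGG1 with CAMK1 (943 and 1029) and LIG3 with RFFL (249 and 404). Reads from such a gene and its partner cannot be told apart here if strand was not used. Each sum takes in all reads of the partner, also from bases not shared, so it is not the change of the repair gene itself.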

How the data were processed

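Libraries of Molm13 RNA, 1 for Vector and 1 labelled OE-UNC5B, were prepared with the VAHTS Universal V6 kit and read on an Illumina HiSeq instrument, and GRCh38 was the reference. The submitters' processing notes name bcl2fastq 2.19, HISAT2 2.0.4 and StringTie 1.3.0. Which annotation was used, and whether strand was, is not given in the sources used here. Deposited values were whole read counts for each gene, not normalized. The authors also deposited FPKM values, whose implied gene length was a median of 2.38 times the canonical transcript over 10224 genes with at least 100 reads, so levels between genes were computed here from the counts and the GENCODE 44 canonical transcript length.

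Library sizes were adjusted by edgeR 4.0.16 in R 4.3.3 with TMM factors of 0.984 and 1.02, and 0.5 reads were added for log2 fold changes. Genes were examined when their reads in both libraries summed to at least 10. Intervals are Clopper-Pearson intervals at 95% (scipy 1.17.1), and reads without molecular identifiers are not independent molecules. With 1 library per group, edgeR's quasi-likelihood test could not be fitted. The median half-width of the repair genes' intervals was 0.144 log2 units. The calling rule was also run on simulated Poisson counts, which hold counting error only and say nothing of variation between cultures. GENCODE held 49659 of the 50868 gene identifiers, and length and GC content were found for 98.8% of examined genes.

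The 54 genes, the pathways and all lists were chosen with earlier results of these data known. Values are given for genes past 1.5-fold, the largest rise and fall of each pathway, pairs whose changes differ by at least 0.5, and, of the further genes, those past 1.5-fold, at most 3 of each direction in a pathway. The values of 1 further gene are not reported here. Others named were chosen after their values were seen. Alternatives tried were size factors of DESeq2 1.42.0, library totals, FPKM with 0.1 or 1 added, 2 reads added, other read minimums, the fold alone, protein-coding genes alone and smaller gene sets. A second row named ATRIP, with fewer reads, was left out.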

Additional observations from a re-analysis of the deposited data

How the results depend on the processing

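A count was taken to move when it changed by over 1.5 times, and a median when it moved by more than 0.144 log2 units, the median half-width of the read intervals. By these limits 3 of 106 recomputed values moved, but many could not. The other read minimums and protein-coding genes alone left the same 54 genes with the same values. Library totals and DESeq2 size factors shift all changes nearly alike, by less than 0.144, so no median could move there. The 3 of 106 is therefore no measure of how stable the results are. With the deposited FPKM and 1 added, 1 repair gene was lower by 1.5-fold instead of 2, MSH6 losing its call, and 2 were higher instead of 3, within those limits, ATM losing its call. With the GC and length trend subtracted, 1 repair gene was higher by 1.5-fold instead of 3, BRCA2 and ATM losing their calls, and the median of the break sensing and checkpoint genes was -0.00058. The median of the repair genes ranged from -0.11 with that trend subtracted to 0.01 with library totals, where it turned sign and the median of all examined genes was 0.04. The medians of the Fanconi anaemia and mismatch repair genes also turned sign there, to 0.03 each, and with DESeq2 size factors and the deposited FPKM, to between 0.02 and 0.03. Without the 11 genes that share at least 10% of their exonic bases with an antisense gene the median was -0.07, and without PRKDC it was -0.04. The trend and these last 2 sets were chosen after the values were seen. Leaving out a replicate was not possible with 1 library per group. No paired analysis was possible because each group has 1 library and no result comes from a test. Depth limits the repair genes to changes beyond 0.023 to 0.333 log2 units, the half-widths of their read intervals, and variation between cultures was not measured.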
